A study of Mus musculus with 8 samples.

Results

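The fibrillar collagens form the cross-banded fibrils that give bone, skin and tendon their tensile strength. The genes described here encode chains of types I, III, V, XI, XXIV and XXVII and were taken from the deposited table by gene symbol. Type II (Col2a1) was not part of the set. The set was Col1a1, Col1a2, Col3a1, Col5a1, Col5a2, Col5a3, Col11a1, Col11a2, Col24a1 and Col27a1. All 10 were among the 14457 genes of the table, and all 10 passed the filter on low values described with the tests. RNA was sequenced in bulk from the femoral shaft of mice at postnatal day 7. The knockout group (CKO, 4 libraries) carried Col2.3kb-Cre with a homozygous floxed Slc26a2 allele (fl/fl), and the control group (4 libraries) carried the same Cre with a heterozygous floxed allele (fl/+), so the driver was present in every library. Slc26a2 encodes a sulfate transporter of the cell membrane, and the study asked what accompanies the disturbed maturation of osteoblasts without it. Col2.3kb is a stretch of collagen promoter used to drive Cre in cells of the osteoblast lineage. Which cells of the shaft it reached was not measured here. The labels number the replicates but do not say that each was a separate animal, so the p-values below measure only the spread between these libraries.

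A fibrillar procollagen is made of 3 chains that wind into a long triple helix of Gly-X-Y repeats and are then trimmed and assembled into fibrils. Type I, a heterotrimer of alpha1(I) and alpha2(I), is the main protein of bone. Types V and XI are built into the same fibrils in small amounts, where they start fibril assembly and limit fibril width, and type III is typical of stretchable tissue and of the periosteum. Types XXIV and XXVII are the most recently described fibrillar types, and in mice Col24a1 is expressed in developing bone and Col27a1 in cartilage.

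The repeat is written into the genes as short coding exons. A 54-base coding exon that holds a glycine codon (GGN) at the head of each Gly-X-Y triplet is shown for Col1a1, Col1a2, Col3a1 and Col24a1 because it is the unit the family shares and the reason its members could be confused in read counting. In each case it is the first such exon of the longest coding transcript in GENCODE M21, on the plus strand of GRCm38, and capitals mark the 6 glycine codons.
Col1a1 exon 8, chr11:94939904-94939957: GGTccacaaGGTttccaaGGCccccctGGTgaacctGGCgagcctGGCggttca
Col1a2 exon 8, chr6:4515481-4515534: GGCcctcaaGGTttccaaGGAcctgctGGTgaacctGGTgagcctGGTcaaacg
Col3a1 exon 6, chr1:45325360-45325413: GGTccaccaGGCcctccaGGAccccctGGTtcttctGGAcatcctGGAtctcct
Col24a1 exon 4, chr3:145320661-145320714: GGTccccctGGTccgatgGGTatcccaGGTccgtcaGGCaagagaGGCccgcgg
The Col1a1 and Col1a2 exons were identical at 42 of 54 positions, and the Col1a1 and Col24a1 exons at 26. Between 21 (Col1a1) and 33 (Col24a1 and Col27a1) of the internal coding exons of each gene were exactly 54 bases long, a length found in 0.726% of internal coding exons over all protein-coding genes. A length divisible by 9, which keeps whole triplets, was found in 76.6% (Col5a1) to 90.0% (Col1a2) of the internal coding exons of each gene, against 14.3% over all protein-coding genes. In spite of this shared plan, no stretch of 50 bases was common to the longest transcripts of any 2 of the 10 genes. The longest transcripts ran from 5348 bases (Col1a2) to 8406 bases (Col5a1), with 51 to 67 exons.

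The 250 bases upstream of the RefSeq start site (GRCm38.p6) were available for 8 of the 10 genes. Those of Col1a2 and Col11a1 are shown because they belong to members whose CKO values all lay below their control values. Capitals mark CCAAT, the CCAAT box bound by NF-Y, and GGGCGG, the GC box bound by Sp1, on either strand, so that a match on the other strand reads ATTGG or CCGCCC.
Col1a2, chr6:4505368-4505617, plus strand: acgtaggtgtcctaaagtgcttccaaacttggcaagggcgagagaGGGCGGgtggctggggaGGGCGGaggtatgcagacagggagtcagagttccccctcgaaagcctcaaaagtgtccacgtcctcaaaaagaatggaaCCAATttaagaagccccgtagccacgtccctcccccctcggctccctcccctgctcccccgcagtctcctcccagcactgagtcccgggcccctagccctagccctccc
Col11a1, chr3:114030290-114030539, plus strand: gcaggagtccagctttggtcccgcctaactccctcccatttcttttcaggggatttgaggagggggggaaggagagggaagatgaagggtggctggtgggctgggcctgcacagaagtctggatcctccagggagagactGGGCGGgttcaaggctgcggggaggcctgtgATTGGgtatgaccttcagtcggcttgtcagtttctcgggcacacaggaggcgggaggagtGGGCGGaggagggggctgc
Col1a2 held CCAAT 109 bases before its RefSeq start and GGGCGG at 205 and 188 bases. Col11a1 held CCAAT at 79 bases on the other strand and GGGCGG at 110 and 19 bases. The Col1a2 window lies inside the gene as placed by GENCODE M21 (chr6:4504814-4541544), so its distances hold only for the RefSeq start. GGGCGG was present in 6 of the 8 members and in 32.7% of the 32851 promoters of the table. CCAAT was in 3 of 8 and 33.8%, and TATAAA, the letters of the TATA box, in 2 of 8 and 12.4%. The TATAAA matches lay 117 bases (Col3a1) and 143 bases (Col11a2) before the RefSeq start, and whether they act as TATA boxes was not tested. ACCACA, the core of the RUNX motif, was in 0 of 8 and 14%. These matches describe the letters of this window and not binding.

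Values are the authors' FPKM (fragments counted on a gene divided by its length and by the size of the library), so levels of different genes can be compared per length. Depth per library is unknown. The FPKM totals were 431612 to 598419 in CKO libraries and 352283 to 379669 in control libraries and did not overlap. Slc26a2 itself had 0.706 to 2.93 FPKM in CKO and 4.37 to 7.49 FPKM in control libraries, with no overlap (limma log2 fold change -1.34, SE 0.30, adjusted p = 0.0412). The 10 osteoblast markers listed for this work, which hold no collagen, were all in the table and summed to 10485 to 30246 FPKM in CKO and 16689 to 27939 FPKM in control, which places osteoblast RNA in every library. Sp7, the osteoblast transcription factor osterix, had 19.6 to 70.1 FPKM in CKO and 60.6 to 109 FPKM in control. The shaft also held marrow and muscle. Neutrophil markers summed to 6888 to 28426 FPKM in CKO and 2400 to 5147 FPKM in control, and erythroid markers to 18070 to 70843 FPKM in CKO and 3862 to 13093 FPKM in control, so both sums were higher in every CKO library. The sum of B lineage markers (209 to 543 FPKM in CKO, 76.5 to 447 FPKM in control) and of skeletal muscle markers (119 to 7932 FPKM in CKO, 46.8 to 2858 FPKM in control) overlapped. In bulk RNA, fewer cells of a type and less RNA per cell cannot be told apart, and the part of this mixture in the collagen values was not tested beyond the covariate fits given below.

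Each of the 10 fibrillar collagen genes of the set had a lower mean in CKO than in control, by 12.4% (Col27a1) to 62.0% (Col1a1). None of them passed the test across all genes. log2(FPKM + 1) was fitted with limma over the 12748 genes that reached 1 FPKM in 4 or more libraries, with Benjamini-Hochberg adjustment and a threshold of 0.05. None of the 10 members was called, and the adjusted p ranged from 0.0761 (Col5a2) to 0.705 (Col27a1). Among all genes tested, 578 were called, 4.53% in either direction, 0.651% as lower and 3.88% as higher in CKO. The 5 chains Col1a1, Col1a2, Col5a1, Col5a2 and Col11a1 had a limma p under 0.05 before adjustment, as did 9.45% of all tested genes in that direction. A log2 fold change of -1 or less was found in 4 members (Col1a1, Col1a2, Col5a1 and Col11a1) and in 1.30% of all tested genes. The median log2 fold change was -0.87 over the members and 0.01 over all tested genes.

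**Figure D1:**
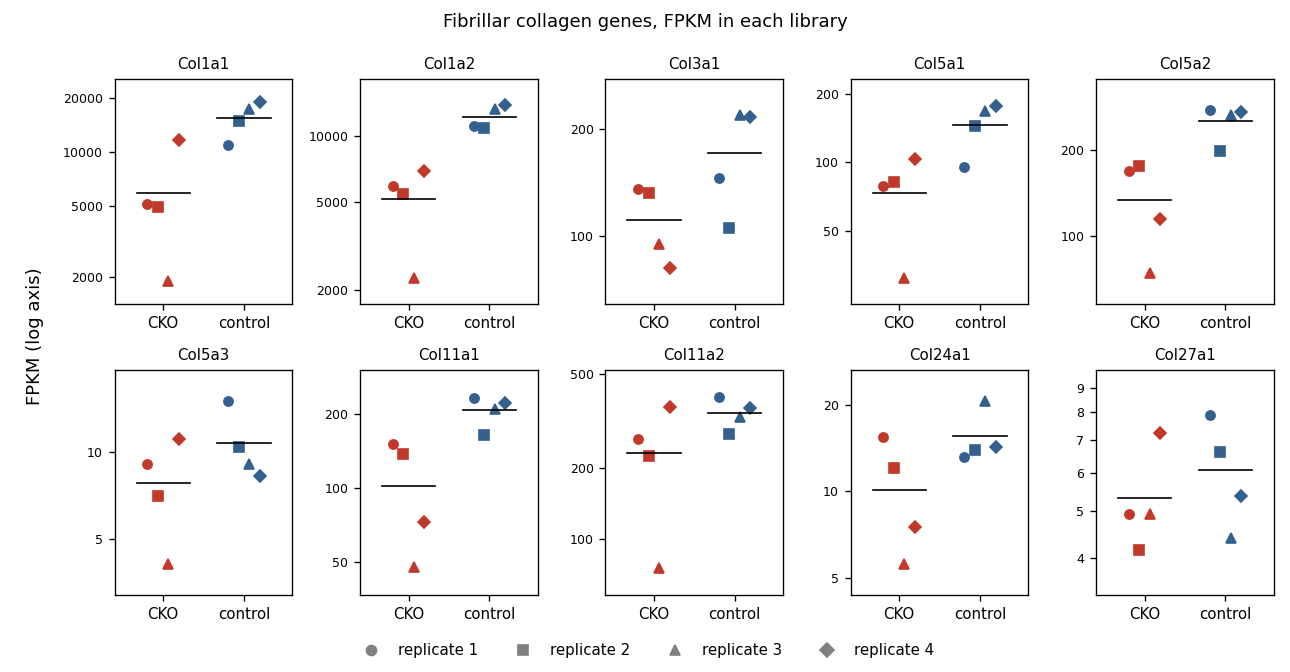
FPKM (log axis) of each fibrillar collagen gene in the 4 CKO and 4 control libraries, one symbol per replicate number, with a line at the group mean. The groups do not overlap for Col1a2, Col5a2 and Col11a1, and CKO replicate 3 is the lowest CKO library for 8 of the 10 genes.

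The type I chains were by far the most abundant. Gene positions here and below are those of GENCODE M21 on GRCm38, on the plus strand except for Col5a2 and Col5a3. Col1a1 (ENSMUSG00000001506, chr11:94936224-94953042), the alpha1 chain, had 5117, 4902, 1895 and 11607 FPKM in CKO replicates 1 to 4, against 10864, 14805, 17339 and 18919 FPKM in control replicates 1 to 4. CKO replicate 4 lay above the lowest control, and the other CKO libraries lay below every control. The means were 5880 ± 4091 FPKM in CKO and 15482 ± 3514 FPKM in control (SD, n = 4 each), a limma log2 fold change of -1.64 (SE 0.55, adjusted p = 0.102). Col1a2 (ENSMUSG00000029661, chr6:4504814-4541544), the alpha2 chain, had 5954, 5457, 2256 and 6970 FPKM in CKO, against 11077, 10835, 13332 and 13822 FPKM in control. All 4 CKO libraries were below all 4 controls, as for 6.00% of all tested genes in this direction. Its log2 fold change was -1.36 (SE 0.45, limma adjusted p = 0.0963). Together the 2 genes took 2.21% ± 1.08 of all FPKM in CKO and 7.61% ± 1.31 in control (SD, n = 4 each), with ranges of 0.694% to 3.24% in CKO and 5.90% to 8.64% in control.

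Type III is a homotrimer of a single chain. Col3a1 (ENSMUSG00000026043, chr1:45311538-45349706) had 135, 132, 94.7 and 80.8 FPKM in CKO, against 145, 105, 219 and 216 FPKM in control. CKO replicates 1 and 2 lay above control replicate 2, so the groups overlapped. The log2 fold change was -0.59 (SE 0.29, limma adjusted p = 0.235). Col3a1 was 1 of 2 genes with its lowest CKO value outside CKO replicate 3.

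The type V chains, which join type I in the fibril core, were not alike in the overlap of their groups. Col5a1 (ENSMUSG00000026837, chr2:27886425-28039514), the chain that all type V trimers need, had 78.6, 81.8, 31.1 and 103 FPKM in CKO, against 95.5, 144, 169 and 177 FPKM in control. Only CKO replicate 4 exceeded the lowest control, and the log2 fold change was -1.07 (SE 0.36, limma adjusted p = 0.106). Col5a2 (ENSMUSG00000026042, chr1:45374321-45503282), its usual partner, had 169, 176, 74.3 and 115 FPKM in CKO, against 275, 198, 265 and 272 FPKM in control. The groups did not overlap, and the log2 fold change was -0.98 (SE 0.29, limma adjusted p = 0.0761). Col5a2 lies 24614 bases from Col3a1 on the opposite strand of chromosome 1. Col5a3 (ENSMUSG00000004098, chr9:20770050-20815067), a rarer chain, had 9.14, 7.06, 4.11 and 11.1 FPKM in CKO, against 15.0, 10.5, 9.09 and 8.28 FPKM in control. Here CKO replicates 1 and 4 lay within the control range, and the log2 fold change was -0.44 (SE 0.29, limma adjusted p = 0.374).

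Type XI is best known from cartilage, where it joins type II. Both genes listed here for it were more abundant than Col2a1, which encodes the type II chain. Col11a1 (ENSMUSG00000027966, chr3:114030540-114220718) had 151, 138, 47.8 and 72.9 FPKM in CKO, against 233, 164, 211 and 221 FPKM in control. The groups did not overlap, and the log2 fold change was -1.15 (SE 0.35, limma adjusted p = 0.0817). Col11a2 (ENSMUSG00000024330, chr17:34039437-34066685) had 264, 224, 75.3 and 362 FPKM in CKO, against 399, 278, 328 and 358 FPKM in control. CKO replicate 4 lay above 3 of the 4 controls, the other CKO libraries lay below every control, and the log2 fold change was -0.75 (SE 0.42, limma adjusted p = 0.297), or -0.28 without CKO replicate 3. Col2a1 averaged 45.9 FPKM in CKO and 39.8 FPKM in control, and Col11a2 exceeded it in 8 of 8 libraries. Its range was 11.9 to 64.8 FPKM in CKO and 27.5 to 52.2 FPKM in control, with a limma adjusted p of 0.994. Acan, which encodes the main cartilage proteoglycan, had at most 2.42 FPKM in CKO and 3.93 FPKM in control, and the chondrocyte markers, 10 of 13 of them in the table, summed to 18.3 to 93.0 FPKM in CKO and 54.4 to 85.9 FPKM in control.

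The remaining types were present at low levels. Col24a1 (ENSMUSG00000028197, chr3:145292472-145552011) had 15.4, 12.03, 5.57 and 7.49 FPKM in CKO, against 13.2, 13.9, 20.8 and 14.3 FPKM in control. CKO replicate 1 lay within the control range and the other CKO libraries lay below it, with a log2 fold change of -0.64 and an SE of 0.30 (limma adjusted p = 0.209). Col27a1 (ENSMUSG00000045672, chr4:63214004-63334991) had 4.93, 4.17, 4.95 and 7.26 FPKM in CKO, against 7.90, 6.64, 4.41 and 5.37 FPKM in control. Its groups overlapped almost fully, and the log2 fold change was -0.16 (SE 0.23, limma adjusted p = 0.705).

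The order of the levels was the same in both groups at its ends. In CKO the means ran Col1a1, Col1a2, Col11a2, Col5a2, Col3a1, Col11a1, Col5a1, Col24a1, Col5a3 and Col27a1, and in control Col11a1 preceded Col3a1. Col1a2 stood above Col11a2, and Col5a1 above Col24a1, with no overlap of their ranges in either group. Col1a1 and Col1a2 overlapped in both groups, and Col1a1 was the higher in 1 of 4 CKO and 3 of 4 control libraries. From Col5a2 down to Col5a1 each gene overlapped the next in both groups. Type I made up 92.5% to 96.1% of the summed FPKM of the 10 genes in CKO libraries and 94.9% to 96.5% in control libraries.

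In the authors' deposited table, 7 of the 10 genes had a p-value under 0.05 with a negative log2 fold change, as did 12.0% of all genes in that table. The table does not say whether its p-values are adjusted. The authors' deposited table gives 0.000557 for Col1a2, 0.000799 for Col5a2, 0.00130 for Col11a1 and 0.00804 for Col1a1 in this column. The authors' deposited table further gives 0.0104 for Col5a1, 0.0270 for Col3a1 and 0.0365 for Col24a1. The log2 fold changes of the authors' deposited table were -1.04 for Col1a1 and -1.08 for Col1a2, smaller in size than those fitted here for the same genes.

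Ratios between chains were taken within each library, where a change of library scaling cancels. The means of log2 ratios (with 0.01 added to each FPKM) were compared by exact permutation (two-sided, 70 assignments), for which the smallest possible p is 0.0286. A total of 11 ratios were tested, 10 between chains and 1 of Col1a1 to the osteoblast markers. None reached p under 0.05, and after Benjamini-Hochberg adjustment over the 11 the values lay between 0.314 and 0.857.

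The ratio of the type I chains lay between 0.840 and 1.67. Col1a1 over Col1a2 was 0.859, 0.898, 0.840 and 1.67 in CKO, against 0.981, 1.37, 1.30 and 1.37 in control. CKO replicates 1 to 3 lay below every control and CKO replicate 4 above every control. The difference of mean log2 ratios was -0.29 with an SE of 0.26 (exact permutation p = 0.4, adjusted p = 0.550), and without CKO replicate 4 it was -0.52.

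Relative to Col1a1, the minor chains had higher ratios in CKO replicates 1 to 3. This was so for Col3a1, Col5a1, Col11a1, Col24a1 and Col27a1, whose ratios to Col1a1 in those 3 libraries were above every control. The 5 ratios share their denominator and are not independent. These 3 are also the CKO libraries without Y-linked expression. Within the libraries that have it, CKO replicate 4 minus the control mean was -0.53 for Col3a1, -0.12 for Col5a1, -0.89 for Col11a1, -0.56 for Col24a1 and 0.97 for Col27a1. Within those that lack it, the difference was 1.30, 0.88, 0.36, 1.199 and 0.83 for the same genes, against the single control. Col5a1 over Col1a1, the ratio of the fibril-nucleating chain to the bulk chain, was 0.0154, 0.0167, 0.0164 and 0.00888 in CKO, against 0.00879, 0.00976, 0.00973 and 0.00938 in control. The controls were close to one another, with an SD of 0.07 on the log2 scale, and CKO replicate 4 lay within them. The difference was 0.56 with an SE of 0.22 (exact permutation p = 0.114, adjusted p = 0.314) and 0.78 without CKO replicate 4. Col3a1 over Col1a1 was 0.0265, 0.0270, 0.04996 and 0.00697 in CKO, against 0.0134, 0.00710, 0.0126 and 0.0114 in control. CKO replicate 4 was the lowest of all libraries, and the difference was 1.05 with an SE of 0.63 (exact permutation p = 0.143, adjusted p = 0.314) and 1.61 without it, but 0.66 without CKO replicate 3. For Col24a1 the difference was 0.94 with an SE of 0.56 (exact permutation p = 0.143), and 1.47 without CKO replicate 4. For Col11a1 it was 0.49 with an SE of 0.58 (exact permutation p = 0.4), and 1.02 without that library, but 0.28, 0.30 and 0.35 without CKO replicate 1, 2 or 3. For Col27a1 it was 1.46 with an SE of 0.56 (exact permutation p = 0.0571, adjusted p = 0.314). Without CKO replicate 4, the ratios of Col3a1, Col5a1 and Col24a1 to Col1a1 and of Col1a1 to the osteoblast markers had an exact permutation p of 0.0286, the smallest that 35 assignments can give. The lowest adjusted p over the 11 ratios was then 0.0786.

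**Figure D2:**
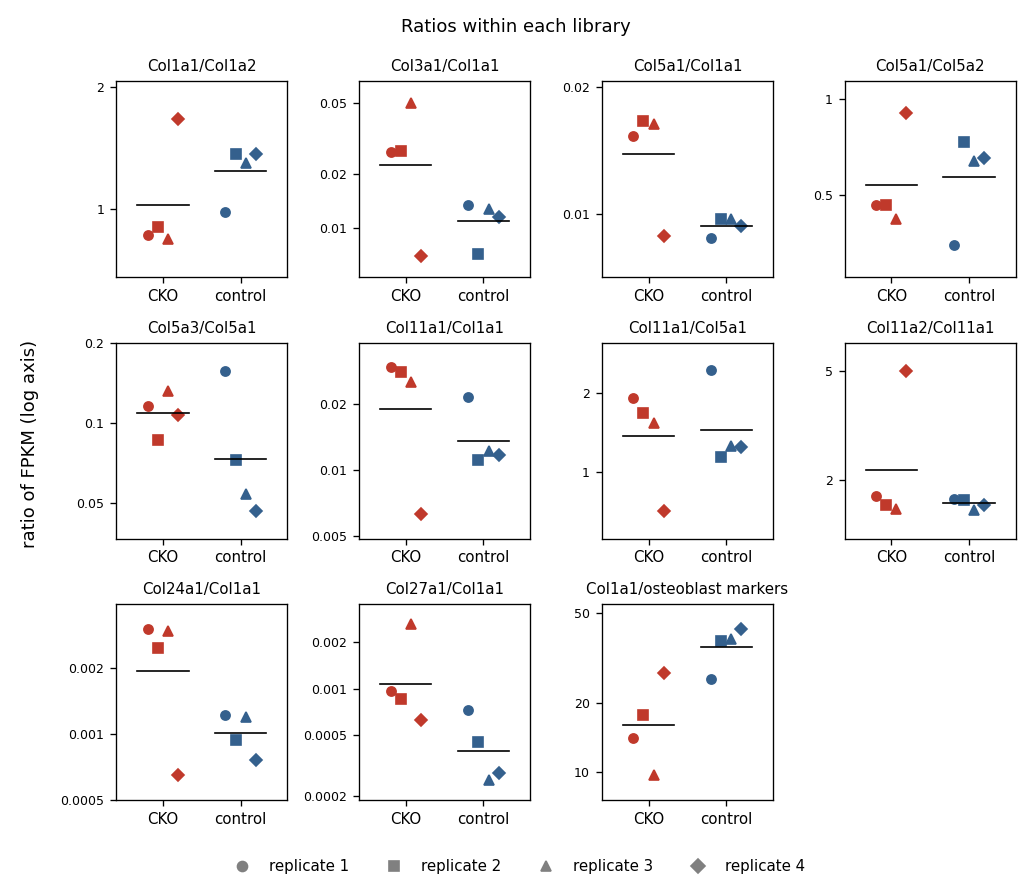
Ratios of FPKM within each library (log axis) for the 10 chain pairs and for Col1a1 over the mean of the osteoblast markers, one symbol per replicate number, with a line at the geometric mean. CKO replicate 4 lies apart from the other CKO libraries in Col1a1/Col1a2, Col5a1/Col1a1, Col5a1/Col5a2, Col11a1/Col1a1, Col24a1/Col1a1 and Col11a2/Col11a1.

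Chains that share a trimer were compared too. Col11a2 over Col11a1 was 1.75, 1.62, 1.57 and 4.96 in CKO, against 1.71, 1.69, 1.56 and 1.62 in control. It thus lay between 1.56 and 1.75 in 7 libraries and was at 4.96 in CKO replicate 4 alone. The difference was 0.40 with an SE of 0.40 (exact permutation p = 0.457, adjusted p = 0.559) and 0.00446 without CKO replicate 4. Col5a1 over Col5a2 was 0.466, 0.466, 0.418 and 0.900 in CKO, against 0.347, 0.730, 0.636 and 0.653 in control, a difference of -0.09 with an SE of 0.35 (exact permutation p = 0.800). Both CKO replicate 4 and control replicate 1 stood away from their groups here, in opposite directions. Col11a1 over Col5a1, chains that can join in 1 trimer, differed by -0.07 with an SE of 0.41 (exact permutation p = 0.857), and Col5a3 over Col5a1 by 0.58 with an SE of 0.41 (exact permutation p = 0.200).

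Col1a1 was also set against osteoblast genes of the same library. Its FPKM was 14.1, 17.7, 9.69 and 27.2 times the geometric mean of the 10 osteoblast markers in CKO, against 25.6, 37.8, 38.4 and 42.3 times in control. CKO replicates 1 to 3 were below every control and CKO replicate 4 was above control replicate 1. The difference of mean log2 ratios was -1.14 with an SE of 0.35 (exact permutation p = 0.0571, adjusted p = 0.314). Of these markers 9 of 10 had a log2 fold change below 0, as did 48.9% of all tested genes. Their median was -0.60, against 0.01 over all tested genes, and none was called by limma at the adjusted threshold. For 2 of the 10, every CKO library lay below every control, as for 6.00% of all tested genes.

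CKO libraries differed from one another with base composition. GC content of the longest transcript ran from 48.0% (Col11a1) to 62.9% (Col11a2) among the members. In the 6 genes at 55.7% to 62.9% GC (Col1a1, Col1a2, Col5a1, Col5a3, Col11a2 and Col27a1), CKO replicate 4 was the highest CKO library. It was 0.54 to 1.68 above the mean of the other CKO libraries on the log2(FPKM + 1) scale. In the 4 genes at 48.0% to 52.5% GC (Col3a1, Col5a2, Col11a1 and Col24a1) the same difference lay between -0.56 and -0.18. Across the 12116 tested genes with a GC value, the Spearman correlation of this deviation with GC was 0.58 in CKO replicate 4. In the other libraries, each set against its own group, it lay between -0.45 and 0.25. Over the 10 members it was 0.70 in CKO replicate 4, and -0.65, -0.90 and -0.25 in CKO replicates 1 to 3, each deviation being taken against the other 3 libraries, CKO replicate 4 among them. Genes are not independent replicates, and the part of base composition in the ratios was not tested. CKO replicate 4 had the highest sums of erythroid (70843 FPKM), skeletal muscle (7932 FPKM) and osteoblast markers (30246 FPKM) of the 8. Single osteoblast genes did not all follow that osteoblast sum. Bglap was at 12420 FPKM there, against 1210 to 6662 FPKM in the other libraries. Runx2 (18.05 FPKM) lay below every control (22.98 to 34.8 FPKM). Sp7 (70.1 FPKM) and Alpl (211 FPKM) exceeded control replicate 1 and no other control. CKO replicate 3, lowest for 8 members, had the highest neutrophil sum (28426 FPKM) and the lowest osteoblast sum (10485 FPKM). The part of these marker sums in the collagen values of these libraries was not tested. With a trend against GC removed from each library, a setting chosen after seeing the data, Col1a1, Col1a2 and Col5a1 were called lower by limma (adjusted p = 0.0453, 0.0469 and 0.0495) beside 1.98% of all genes called lower. Their log2 fold changes there were -1.64, -1.42 and -1.08.

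**Figure D3:**
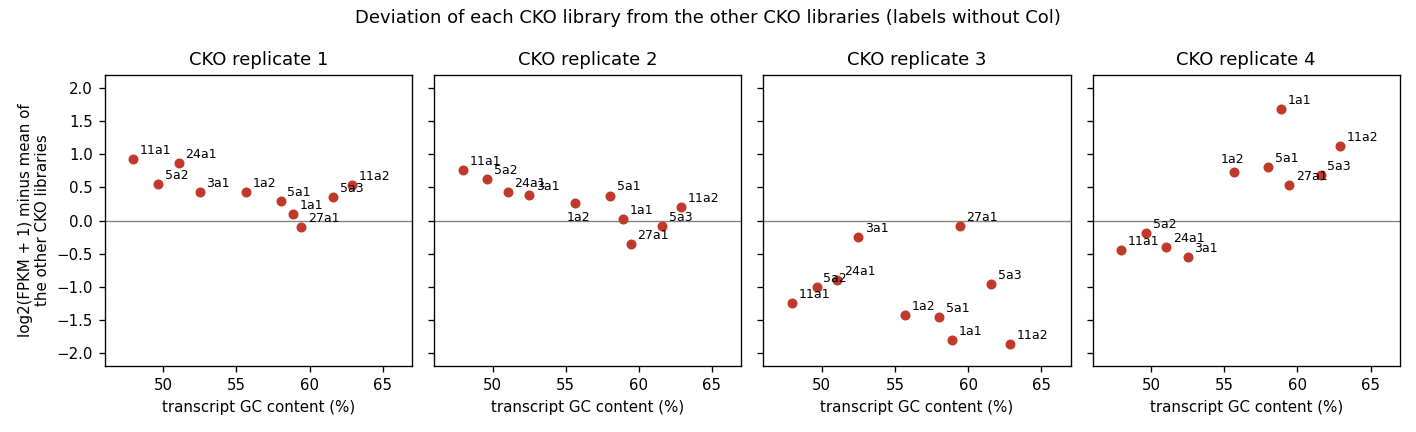
Deviation of each CKO library from the mean of the other CKO libraries on the log2(FPKM + 1) scale, against the GC content of the longest transcript, for the 10 fibrillar collagen genes. In CKO replicate 4 the 6 genes at 55.7% GC or more lie above 0 and the other 4 below it.

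Across the table, log2 fold changes were lower in genes with long transcripts, and all members are long. Among the 1633 tested genes with transcripts of 5348 to 8406 bases, the range of the members, the median log2 fold change was -0.34 and 83.5% were below 0. A direction below 0 in all 10 members therefore has to be read against that share. The lower quartile of those genes was -0.56, and 8 of the 10 members lay under it, with Col5a3 and Col27a1 above it. With the trend against length removed from each library, limma called 0 of all genes (1936 had a p under 0.05 before adjustment) and 0 members, while 3 members had a limma p under 0.05 before adjustment, all lower in CKO, beside 5.65% of all genes in that direction. The log2 fold changes were then -1.28 for Col1a1 (adjusted p = 0.251), -1.03 for Col1a2 (adjusted p = 0.197), and 0.28 for Col27a1.

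**Figure D4:**
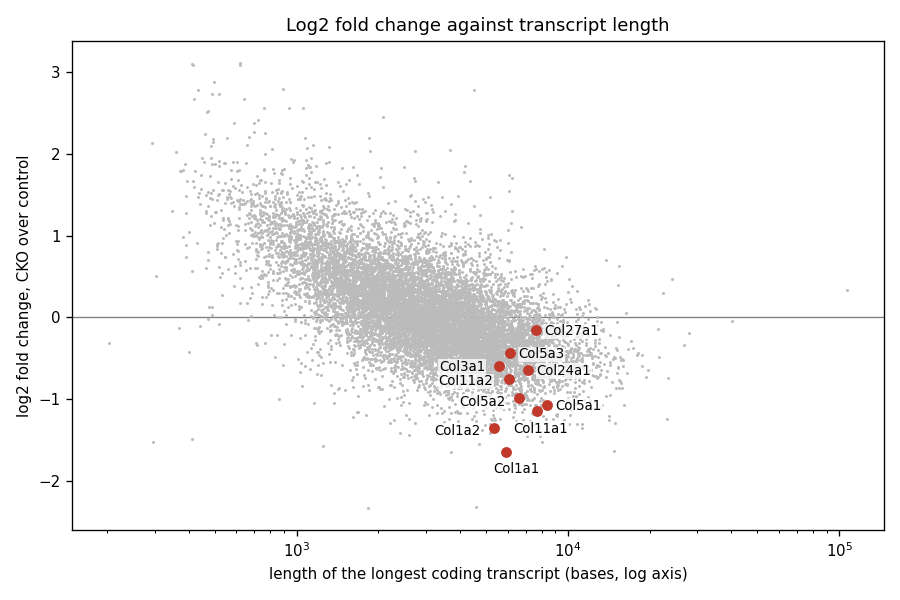
Log2 fold change of CKO over control against the length of the longest coding transcript (log axis), for all tested genes with a length (grey) and the 10 fibrillar collagen genes (red). Fold changes are lower at longer lengths, and the 10 members lie between -1.64 (Col1a1) and -0.16 (Col27a1).

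Y-linked genes were listed at 0 FPKM in CKO replicates 1 to 3 and control replicate 1 and were above 0 in CKO replicate 4 and control replicates 2 to 4, so sex and genotype were unevenly mixed. Within the libraries lacking Y-linked expression, all 10 genes were lower in CKO, with Col1a1 at a mean of 3971 FPKM in CKO and 10864 FPKM in the single control. Within those with it, 7 of 10 were lower, with Col1a1 at 11607 FPKM in the single CKO library and a mean of 17021 FPKM in control. The others were Col5a3, Col11a2 and Col27a1, at 1.19, 1.13 and 1.33 times the control mean in CKO replicate 4. In the same split, CKO replicate 4 had 0.55 times the control mean for Col1a2 and 0.68 times for Col1a1, and lower shares for Col11a1 (0.37), Col3a1 (0.45), Col24a1 (0.46) and Col5a2 (0.47). With Y-linked expression as a covariate, the log2 fold changes of Col1a1 and Col1a2 were -0.92 and -1.09 (limma adjusted p = 0.471 and 0.372), and those of Col11a1 and Col5a2 were -1.38 and -1.12 (0.232 and 0.236). The mean of the neutrophil, erythroid and B lineage markers was a further covariate. With it the log2 fold changes of Col1a1 and Col1a2 were -1.13 and -1.10 (SE 0.88 and 0.74, limma adjusted p = 0.638 and 0.592). Col3a1 was at -0.17 (SE 0.44) in place of -0.59 (SE 0.29). The neutrophil and erythroid sums did not overlap between the groups, so this covariate and genotype can hardly be told apart.

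Calls of single members depended on the setting. With FPKM totals made equal, 10 of 10 members had a limma p under 0.05 before adjustment, beside 26.1% of all genes in that direction, and none was called. Without CKO replicate 4, limma called Col1a1 (log2 fold change -2.06, adjusted p = 0.0323) and Col5a1 (-1.27, adjusted p = 0.0457), beside 2.75% of all genes called lower. Without CKO replicate 3, no gene was called (2632 had an unadjusted p under 0.05). The log2 fold changes were then -1.19 for Col1a1 (limma adjusted p = 0.182), -0.70 for Col5a1 (0.178), -0.20 for Col5a3 (0.682), -0.28 for Col11a2 (0.541) and -0.42 for Col24a1 (0.413). Without control replicate 1, Col5a3 was at -0.28 and Col27a1 at -0.04, and without CKO replicate 4 Col27a1 was at -0.30. With skeletal muscle expression as a covariate it called 5 members lower (Col1a1, Col1a2, Col5a1, Col5a2 and Col11a1), beside 3.69% of all genes. Array weights called the same 5, beside 14.9%, and quantile normalization called Col5a1, Col5a2 and Col11a1, beside 1.73%. Col3a1, Col5a3, Col11a2, Col24a1 and Col27a1 were called under none of the 23 other settings.

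**Figure D5:**
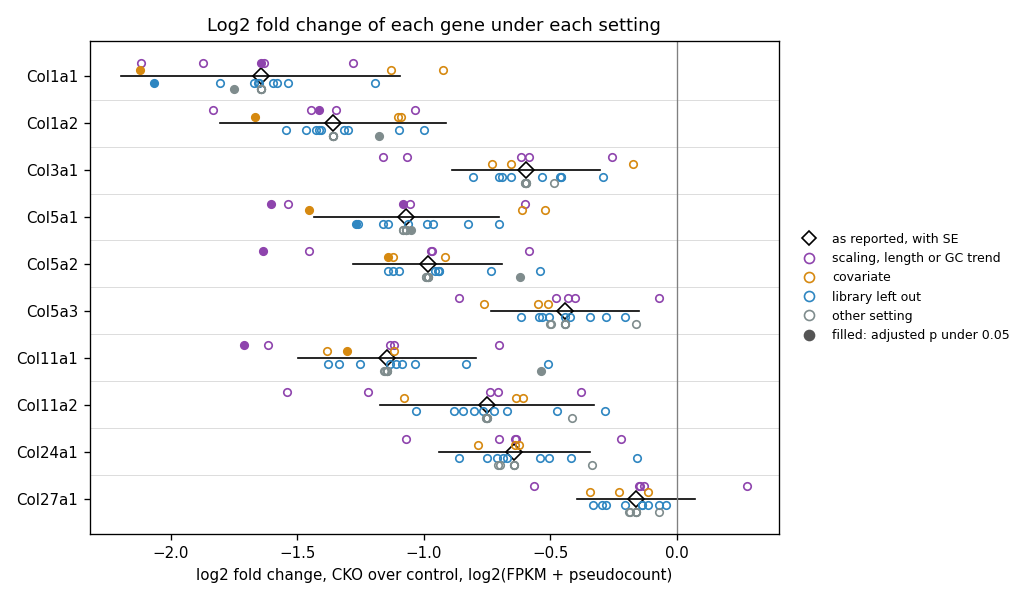
Log2 fold change of CKO over control for each fibrillar collagen gene as reported (diamond, bar for the SE) and under the 23 other settings (circles, filled where the limma adjusted p was under 0.05). All points lie below 0 except 1 for Col27a1, at 0.28 with the length trend removed.

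The members did not vary together as a single block. Over the 8 libraries the Pearson correlation of log2(FPKM + 1) between members, a description that holds the difference between groups as well as shared library effects, was highest for Col5a2 and Col11a1 (r = 0.99). It was lowest for Col3a1 and Col27a1 (r = -0.40). Col1a1, Col3a1, Col11a2 and Col24a1 were also set against 8382 tested genes outside the set with a mean of at least 5 FPKM. Only the genes with the highest r of the 8382 are named, over 8 libraries, and that choice alone makes r high. Those most like Col1a1 were Lamb2, a laminin chain (r = 0.99), and Bgn, the proteoglycan biglycan (r = 0.98). Next came Aebp1, a collagen-binding secreted protein (r = 0.98), and Itga10, a collagen-binding integrin chain (r = 0.98). Most like Col3a1 were Tnn, the matrix protein tenascin W (r = 0.96), Angptl2 (r = 0.94), Insc (r = 0.94) and Aldh1l2 (r = 0.91). Most like Col11a2 were Serpinf1, encoding the secreted factor PEDF, Sparc, encoding osteonectin, Myo18a (each r = 0.97) and Nbl1 (r = 0.96). Most like Col24a1 were Trp53bp2 and the cargo receptor gene Lman1 (each r = 0.97), Dag1, encoding dystroglycan (r = 0.96), and S1pr1 (r = 0.95).

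Genes that act on fibrillar collagens were counted by step, and the steps were not tested against one another. None of 19 tested genes of procollagen folding and modification passed the limma threshold, with a median log2 fold change of -0.19 against 0.01 over all tested genes. Serpinh1, the collagen chaperone HSP47, averaged 547 ± 60.5 FPKM in CKO and 610.5 ± 147 FPKM in control (SD, n = 4 each; limma adjusted p = 0.779). Ppib, a prolyl isomerase of the folding complex, averaged 450 ± 285 FPKM in CKO and 237 ± 33.1 FPKM in control (log2 fold change 0.75, limma adjusted p = 0.233). Serpinh1 and Ppib were named for their high means and not as typical of the list. Of the 19 genes, 16 had a log2 fold change below 0, as did 48.9% of all tested genes. For 2 of the 19, every CKO library lay below every control, as for 6.00% of all tested genes.

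Of 11 tested genes of procollagen cleavage and crosslinking 3 fell and 8 did not pass, beside 0.651% of all tested genes called lower, with a median log2 fold change of -0.63. The oxidase gene Loxl2 averaged 12.7 ± 2.92 FPKM in CKO and 30.2 ± 5.83 FPKM in control, a log2 fold change of -1.20 (limma adjusted p = 0.0388). Loxl4, another such oxidase, had a log2 fold change of -1.01, and Adamts2, which removes the N-propeptide of types I and III, of -1.07. Of 15 tested fibril-associated and fibril-binding genes 1 fell, beside the same 0.651%, with a median of -0.50. It was Fn1, encoding fibronectin, on which fibrils assemble, at 63.0 ± 17.6 FPKM in CKO and 147 ± 21.6 FPKM in control (log2 fold change -1.24, limma adjusted p = 0.0388). Of 9 tested collagen receptors 1 fell, again beside 0.651%, with a median of -0.74. It was Itga11, an integrin chain that binds fibrillar collagen (log2 fold change -1.10, limma adjusted p = 0.0388). Itga11 averaged 4.84 ± 1.34 FPKM in CKO and 11.3 ± 0.748 FPKM in control. The calls of Loxl2, Loxl4, Adamts2, Fn1 and Itga11 depended on the setting. With median-of-ratios scaling, equal FPKM totals, the length trend removed, or the marrow or Y-linked covariate, limma called 0 genes of the table. It also called 0 without CKO replicate 1, 2 or 3 or control replicate 2, 3 or 4.

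None of 20 tested transcription factors of fibrillar collagen genes passed, with a median log2 fold change of -0.32. Ybx1 averaged 356 ± 197 FPKM in CKO and 231 ± 23.4 FPKM in control, and Atf4, a factor of osteoblast amino acid supply and collagen synthesis, 112 ± 21.8 FPKM in CKO and 96.7 ± 12.8 FPKM in control (SD, n = 4 each; limma adjusted p = 0.514 and 0.599). These 2 were named for their high means and not as typical of the list. Among the list, 14 of 20 had a log2 fold change below 0, as did 48.9% of all tested genes. For 1 of the 20, every CKO library lay below every control, as for 6.00% of all tested genes. The osteoblast transcription factor Runx2 had 13.5 to 19.97 FPKM in CKO and 22.98 to 34.8 FPKM in control, without overlap. Its log2 fold change was -0.83 (limma adjusted p = 0.0512), and that of Sp7 was -0.95 (limma adjusted p = 0.136).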

How the data were processed

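Bulk RNA-seq libraries of the femoral shaft (4 CKO, 4 control) were grouped and numbered by their sample titles. The deposited table holds FPKM for each library, as computed by the authors, with the authors' p-value and log2 fold change per gene, per the file headers. The submitters' processing notes name CASAVA 1.8, fastp, HISAT2 2.0.5, featureCounts 1.5.0-p3, DESeq2 1.20.0 and GRCm38, without role. For the annotation and the strand setting, the sources used here give nothing. Sequencing depth is unknown: low FPKM values gave no whole-read steps (mean distance from a whole number at least 0.229 in every library, 0.25 by chance), so no count model was run. Transcript length, GC content and exons came from GENCODE M21, in which 13477 genes were found.

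Genes that reached 1 FPKM in 4 or more libraries were kept (12748). Their log2(FPKM + 1) values entered a genotype-only model in limma 3.58.1 (R 4.3.3) with trended eBayes. Benjamini-Hochberg adjustment ran over all genes kept. Fold changes are on this scale and understate changes of low genes. Ratios were tested with an exact permutation test in Python 3.11.15. Tested on simulated data with 200 changed genes among 12748, the fit recovered 32.5% of log2 fold changes of 1 and 84.2% of those of 2, with 5.64% false calls. The simulated noise was independent between genes and had the same SD in both groups. It held no shared library effects, so these rates do not measure the errors among the calls reported here. The replicate numbers were checked for pairing: deviations of same-numbered libraries correlated at -0.03, 0.23, -0.26 and 0.43 for replicates 1 to 4, so the numbers were not taken to pair them.

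Named genes are the members, Slc26a2, in each list of collagen-related genes up to 3 genes that passed, by smallest adjusted p, or else the 2 with the highest mean, and the 4 genes most like Col1a1, Col3a1, Col11a2 and Col24a1. Marker genes, Col2a1 and Acan among them, were named beyond that rule, after their values were seen. The members, lists, ratios and other settings were chosen with earlier results of these data known. Other settings were the scaling, filters, pseudocounts, array weights, a replicate block, covariates, removal of length and GC trends, and leaving out libraries.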

Additional observations from a re-analysis of the deposited data

Results flagged for a closer look

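In each group of 4 libraries, the gap of the highest or lowest library to its nearest neighbour was compared with Dixon's critical value for 4 samples, as a share of the range. Of 42 groups examined (10 genes and 11 ratios, each in CKO and control), 11 passed it, and chance alone flags about 1 in 20 groups. The genes and ratios share libraries and chains, so the 11 are not independent. Among single genes, Col5a2 was low in control replicate 2 (198 FPKM) and Col24a1 was high in control replicate 3 (20.8 FPKM).

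In CKO replicate 4, 6 ratios stood apart from the other CKO libraries. Col1a1 over Col1a2 was at 1.67, Col5a1 over Col5a2 at 0.900 and Col11a2 over Col11a1 at 4.96, each the highest of its group. Col5a1, Col11a1 and Col24a1 over Col1a1 were at 0.00888, 0.00628 and 0.000646, each the lowest. In control replicate 1, Col1a1 over Col1a2 was low at 0.981, and Col11a1 was high relative to Col1a1 (0.0215) and to Col5a1 (2.44).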

How the results depend on the processing

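No member was called as reported. Members called lower numbered 3 with quantile normalization, 5 with array weights, 5 with the skeletal muscle covariate and 3 with the GC trend removed. They numbered 0 to 2 when 1 library was left out, with 2 only without CKO replicate 4, and 0 under the other settings. The total of genes called, 578 as reported, was 0 with median-of-ratios scaling, equal FPKM totals, the length trend removed, the marrow covariate or the Y-linked covariate, and 0 without CKO replicates 3 and 4 together, a setting added after the data were seen. In that order, 3386, 3972, 1936, 1252, 2202 and 3642 genes had an unadjusted limma p under 0.05. The total was 358 with quantile normalization (38.3% higher in CKO, against 85.6% as reported), 381 with no filter, 1683 with the skeletal muscle covariate, 6005 with array weights and 1150 with the GC trend removed, and it ranged from 0 to 1885 when 1 library was left out. It was 0 without CKO replicate 1, 2 or 3 or control replicate 2, 3 or 4, where 2103 to 3234 genes had an unadjusted p under 0.05. It was 815 without control replicate 1 and 1885 without CKO replicate 4.

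The replicate block called 274 genes and 0 members. Libraries of the same number did not deviate together in replicates 1 and 3, so the numbers were not treated as pairs. Apart from the comparisons within libraries with Y-linked expression, the sign was kept in 23 of 23 other settings for 9 members and in 22 for Col27a1 (0.28 with the length trend removed). Equal FPKM totals moved the median of all genes to -0.37, and the median of the members there was -1.34. All 11 ratios kept their direction with pseudocounts of 0.1 and 1 and missed the threshold. With 1 library left out, no ratio had an adjusted exact permutation p under 0.05 (lowest 0.0786, without CKO replicate 4). Unadjusted, 4 ratios passed without CKO replicate 4 and 1 (Col5a3 over Col5a1) without control replicate 1. Col5a1 over Col5a2 ranged from -0.341 to 0.0284, above 0 without CKO replicate 3 or control replicate 2. Col11a1 over Col5a1 ranged from -0.236 to 0.243, above 0 without CKO replicate 4 or control replicate 1. The other 9 kept their direction. The causes were not tested. Depth is unknown, so no counting error can be attached to the genes under about 20 FPKM.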
